A study of Saccharomyces cerevisiae with 4 samples.

Results

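Ribosome biogenesis was described through 51 genes of *S. cerevisiae* (the members), chosen by name and by the step they act in, of the 6418 genes in the deposited tables. They encode 7 proteins of the small nucleolar ribonucleoproteins (snoRNPs), the nucleolin-like protein Nsr1, 7 subunits of RNA polymerase I, 15 factors of the 40S processome and 21 factors of 60S assembly. All 51 passed the minimum of 10 counts on average that was set for the comparisons, which left 6010 genes. RNA was sequenced from 4 strains with 1 library each, so that differences between strains are given as values without replicate error.

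The strain byMM1827 expressed denAsCas12a with ScRNA-5′ scaffold RNAs, of which one kind targets the lexOpR sites upstream of a yEGFP reporter and another the HED1 promoter. Its control byMM1777 expressed denAsCas12a without any ScRNA. The strain byMM1832 expressed dCas12e with ScRNA-L1 scaffold RNAs against lexOpR and the promoter of GAL7, and its control byMM1736 expressed dCas12e without ScRNA. All 4 strains were derived from CEN.PK2-1C, a laboratory strain of mating type MATa with MAL2-8c and SUC2 and with the marker alleles trp1-289, ura3-52, his3D1 and leu2-3_112. They all carried an integrated yEGFP reporter with a LEU2 marker, the Cas protein under the constitutive promoter pGPD with a URA3 marker, and the coat protein fusion MCP-VP64 under pADH1 with a TRP1 marker. The ScRNA cassette, with its HIS3 marker, was present only in byMM1827 and byMM1832, so that the marker and the ScRNAs cannot be told apart. Besides the Cas protein, the reporter plasmid also distinguishes byMM1736 and byMM1777. No second isolate of any strain was sequenced. The total count was 54013763 in byMM1827, 37275559 in byMM1777, 47207057 in byMM1832 and 50666124 in byMM1736, and the members had between 484 and 11801 counts in a library. The targeted gene HED1 had 30.3 TPM in byMM1827 and 15.8 TPM in byMM1777, a ratio of 1.92 (95% counting interval 1.68 to 2.20), and in byMM1832, where it was no target, a ratio of 0.508 to byMM1736. The targeted gene GAL7 had 3.53 TPM in byMM1832 and 2.05 TPM in byMM1736, a ratio of 1.72 (interval 1.36 to 2.19), and in byMM1827, where it was no target, a ratio of 1.67 to byMM1777. ACT1, the reference gene of the study's RT-qPCR, had ratios of 1.16 in byMM1827 over byMM1777 and of 1.07 in byMM1832 over byMM1736.

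Ribosomes are made mostly in the nucleolus, where RNA polymerase I transcribes the ribosomal DNA into a long precursor. Box C/D snoRNPs methylate this precursor and box H/ACA snoRNPs convert uridines in it to pseudouridines. The processome, with the U3 snoRNA, assembles on its first part and yields the 40S subunit, while another set of helicases, GTPases and scaffold proteins builds the 60S subunit. In budding yeast the genes of these factors are known as the ribosome biogenesis regulon. Their promoters are known for the PAC element, bound by the repressors Dot6 and Tod6, and for the RRPE element, bound by Stb3, and the regulon is known to be lowered in stress and slow growth.

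The promoters of the members shared these elements. A window of 300 bases, from 250 before the start codon to 50 from it, was cut from the S288C reference genome R64 with its RefSeq annotation for 6020 protein-coding genes, while the strains themselves are of the CEN.PK background. The PAC core GATGAG, searched on both strands, was found in 47 of the 51 members, against 20.3% of all windows. The RRPE core AAAATTTT, which reads the same on both strands, was found in 42 members, against 542 of the 6020 windows. Both cores stood in 40 members, against 4.37% of all windows, and neither in RPA12 and UTP22. The letters of the cores allow no overlap between them. The windows of the members at the ends of the comparisons are shown with both cores in capitals, 5′ to 3′ in the direction of the gene. They belong to NOP7 (chrVII:695167-695466, + strand), the lowest member in byMM1827 against byMM1777, to TIF6 (chrXVI:593020-593319, − strand), the highest there, to NSR1 (chrVII:807607-807906, − strand) and NOP58 (chrXV:898311-898610, − strand), the lowest and the highest in byMM1832 against byMM1736, and to UTP9 (chrVIII:491681-491980, + strand), the lowest in byMM1736 against byMM1777.
NOP7: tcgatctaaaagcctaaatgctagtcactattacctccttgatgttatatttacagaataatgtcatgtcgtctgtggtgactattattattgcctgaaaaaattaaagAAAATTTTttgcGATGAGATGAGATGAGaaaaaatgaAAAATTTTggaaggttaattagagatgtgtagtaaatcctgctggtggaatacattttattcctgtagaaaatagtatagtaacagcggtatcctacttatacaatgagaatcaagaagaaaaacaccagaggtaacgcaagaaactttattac
TIF6: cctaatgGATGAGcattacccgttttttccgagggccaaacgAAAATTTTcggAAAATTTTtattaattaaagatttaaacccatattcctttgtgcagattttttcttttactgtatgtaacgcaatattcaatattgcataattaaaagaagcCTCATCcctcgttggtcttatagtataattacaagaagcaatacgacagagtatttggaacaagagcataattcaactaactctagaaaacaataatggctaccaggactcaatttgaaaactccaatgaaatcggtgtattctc
NSR1: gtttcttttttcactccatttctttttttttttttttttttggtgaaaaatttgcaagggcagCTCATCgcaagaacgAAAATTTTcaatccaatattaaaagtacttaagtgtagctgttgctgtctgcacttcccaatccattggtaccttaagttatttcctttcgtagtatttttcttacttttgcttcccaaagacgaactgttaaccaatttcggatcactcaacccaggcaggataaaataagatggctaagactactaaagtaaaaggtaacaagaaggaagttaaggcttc
NOP58: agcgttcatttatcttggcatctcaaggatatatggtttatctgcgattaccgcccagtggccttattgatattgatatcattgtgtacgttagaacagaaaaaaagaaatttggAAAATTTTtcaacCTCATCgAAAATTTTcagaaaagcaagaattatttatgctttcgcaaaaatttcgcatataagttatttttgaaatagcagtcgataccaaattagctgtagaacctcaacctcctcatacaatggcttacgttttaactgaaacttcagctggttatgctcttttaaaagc
UTP9: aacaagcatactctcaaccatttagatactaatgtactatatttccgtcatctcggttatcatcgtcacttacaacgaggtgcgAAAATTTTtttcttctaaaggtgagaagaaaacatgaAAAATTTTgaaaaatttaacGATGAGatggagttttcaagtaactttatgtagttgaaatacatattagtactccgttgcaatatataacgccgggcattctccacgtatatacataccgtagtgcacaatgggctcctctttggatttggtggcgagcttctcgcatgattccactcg

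In NOP7 the PAC core occurs 3 times in an overlapping run between both copies of the RRPE core. In NOP58 a PAC core on the other strand, read as CTCATC, stands between the RRPE cores. NSR1 has a single copy of each, with PAC farther from the gene. Of the 40 members with both cores, 31 had the RRPE core of the nearest pair upstream of the PAC core (77.5%), against 63.7% of the 223 other genes with both. The gap between the cores of the nearest pair was 10.5 bases at the median of these members and 15 bases at that of the other genes. Matches before the start codon began at a median of -119 bases for PAC and -141.5 bases for RRPE.

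**Figure D1:**
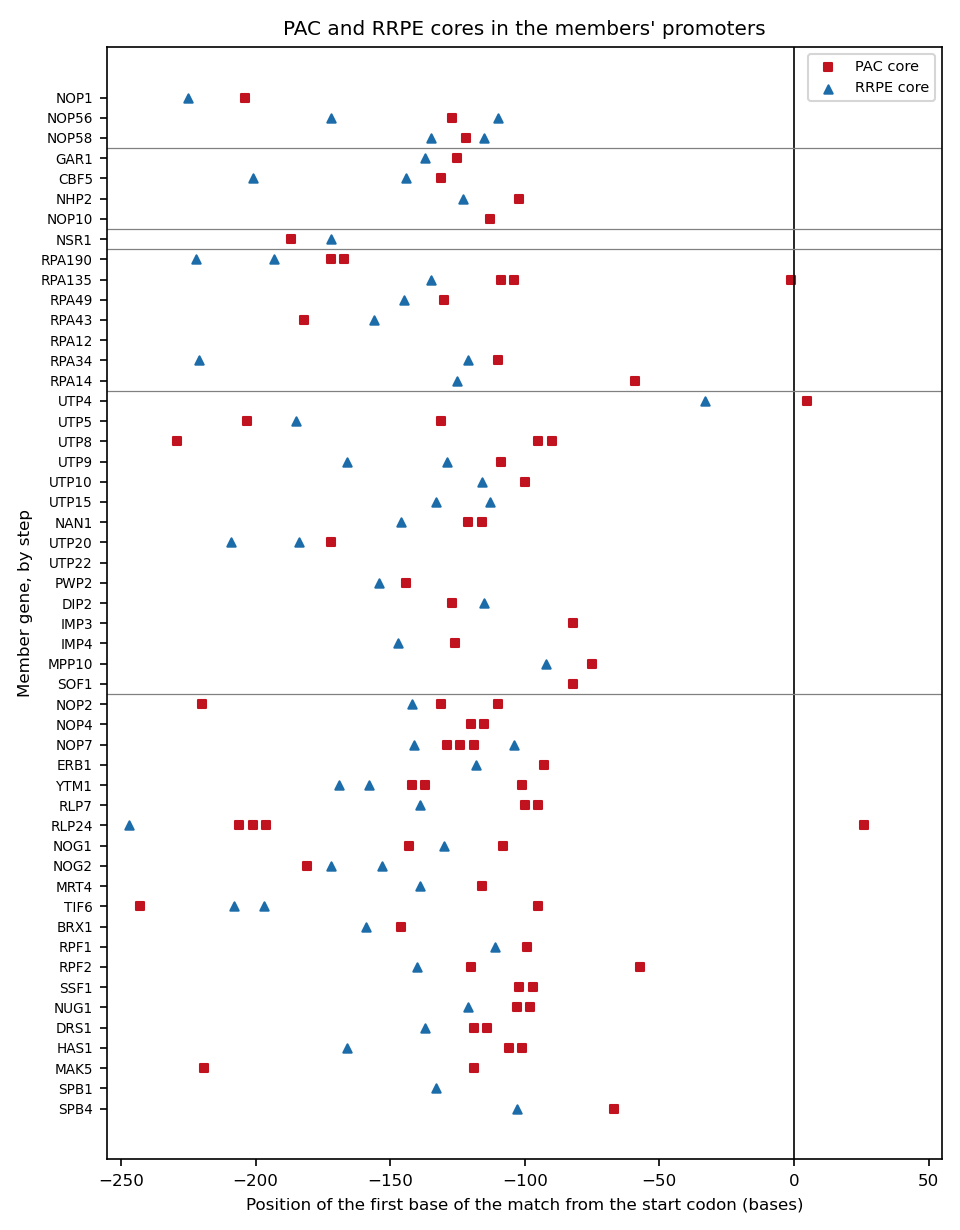
Position of the PAC core (squares) and the RRPE core (triangles) in the promoter window of each of the 51 members, by step, as the distance of the first base of the match from the start codon in bases. Most matches lie between 100 and 150 bases before the start codon, RPA12 and UTP22 have none, and 2 members, UTP4 and RLP24, have a PAC core that starts inside the coding sequence.

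The study sequenced these strains to see how far each activator altered expression outside its targets, and the comparisons were made here for the members. Levels are given in TPM, for which the authors divided counts by gene length and scaled each library to a common total, so that levels of different genes can be compared. For differences, the log2 TPM ratio of 2 libraries was taken relative to the median log2 ratio of all 6010 genes, which was -0.16 in byMM1827 against byMM1777, 0.03 in byMM1832 against byMM1736 and -0.22 in byMM1736 against byMM1777. This relative log2 ratio has a 95% counting interval, which covers only the error of counting. TPM is a share of all transcripts of a culture, so that a lower level in every cell and fewer cells with a high level cannot be told apart.

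The members were mostly lower in byMM1827 than in byMM1777, with a median relative log2 ratio of -0.23 and 38 of 51 below the median of all genes. Past 1.2-fold, 19 members were lower, against 15.7% of all genes, and 2 were higher, RPA12 and TIF6, against 18.4% of all genes. In byMM1832 against byMM1736 the median was -0.06, with 31 members lower and 20 higher. There, 10 members were past 1.2-fold lower, against 22.2% of all genes, and 4 were past 1.2-fold higher, against 19.5% of all genes (NOP58, CBF5, GAR1 and SPB4), so that the share lower was close to that of all genes. No member passed 2-fold in either pair, where 1.31% and 3.44% of all genes did.

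The control libraries, both without ScRNAs, also differed from each other. In byMM1736 against byMM1777 the median was -0.16, 38 of 51 members were lower, 19 were past 1.2-fold lower (18.7% of all genes) and 4 past 1.2-fold higher (19.7% of all genes), with none past 2-fold (1.81% of all genes). This comparison shares byMM1777 with the one of byMM1827, so the values of byMM1827 were also taken against the other control. Against byMM1736 the median of the members in byMM1827 was -0.00495, with 29 lower and 22 higher, 4 past 1.2-fold lower and 5 past 1.2-fold higher, while 11.3% of all genes were past it in each direction. In byMM1832 against byMM1777 the median was -0.22, with 24 members past 1.2-fold lower (27.9% of all genes) and 7 past 1.2-fold higher (29.1% of all genes). The lower levels in byMM1827 thus depended on which control library was used.

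**Figure D2:**
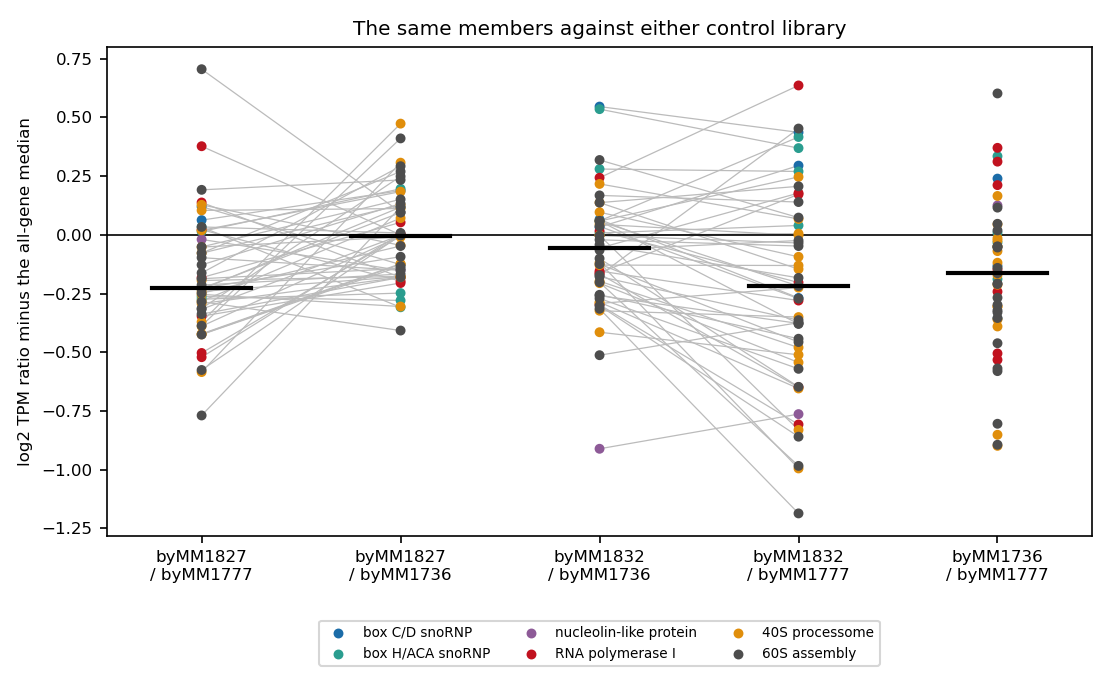
Relative log2 TPM ratios of the 51 members (points, coloured by step) for both strains with ScRNAs against either control library, and for the control libraries against each other. Grey lines join the same gene and black bars are medians, which lie at -0.23 and -0.00495 for byMM1827 against byMM1777 and byMM1736, at -0.06 and -0.22 for byMM1832 against byMM1736 and byMM1777, and at -0.16 between the controls.

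Across the 4 libraries, with each library set on its own median of all genes, byMM1777 had the highest level in 27 of the 51 members, against 27.2% of all genes. byMM1832 was highest in 14 members, against 37.8% of all genes, byMM1736 in 6, against 18.6%, and byMM1827 in 4, against 16.4%. In the 40S processome byMM1777 was highest in 9 of 15 genes, and in 60S assembly in 13 of 21. Among the snoRNP proteins it was highest only in NOP56, and byMM1832 was highest in the other 6. The summed level of all members was 2722 TPM in byMM1827, 3198 TPM in byMM1777, 2729 TPM in byMM1832 and 2747 TPM in byMM1736. Between its highest and lowest library a member differed by 1.32-fold at the median, close to the 1.35-fold of all genes, and by at most 2.21-fold, in NOP7.

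**Figure D3:**
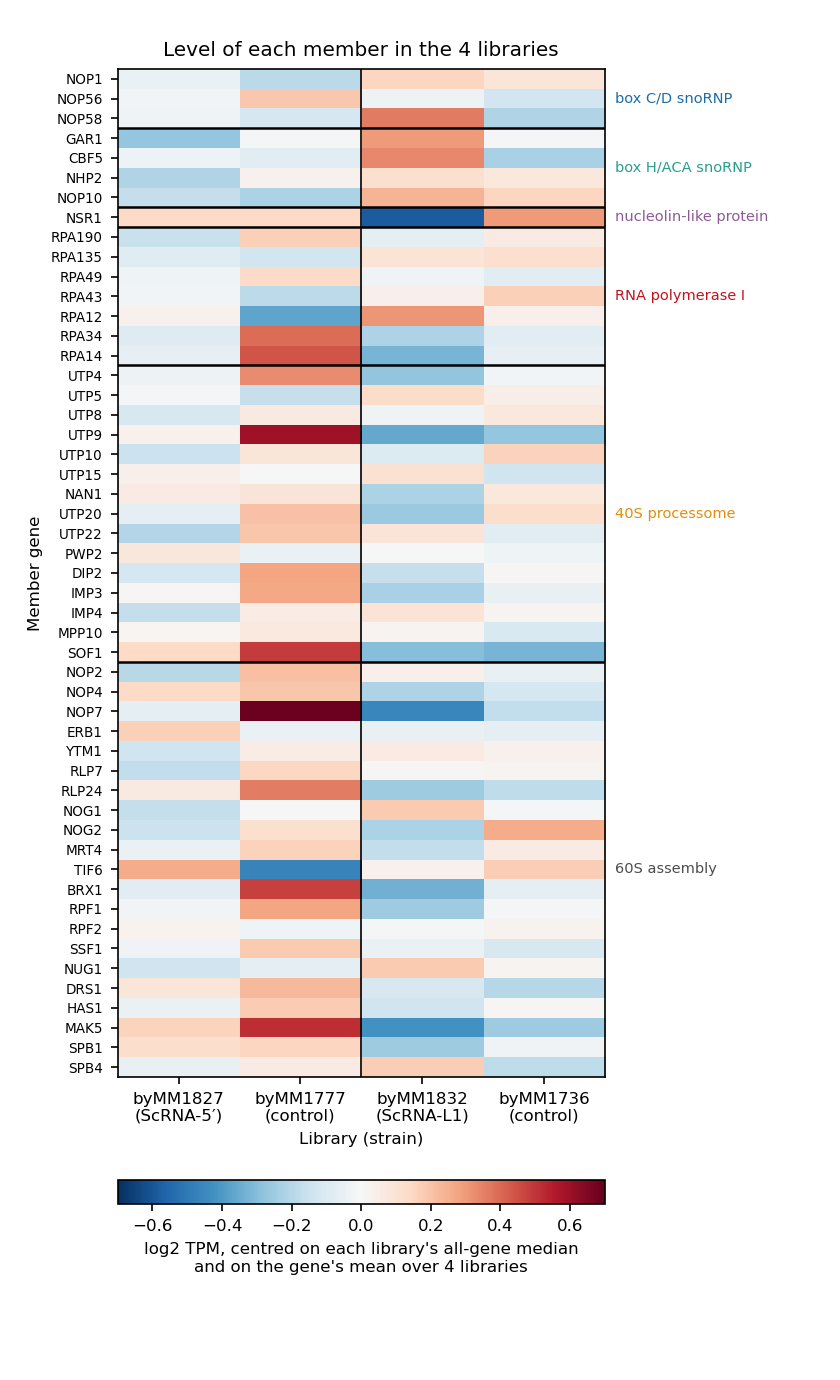
Level of each of the 51 members (rows, by step) in the 4 libraries (columns), as log2 TPM set on the all-gene median of each library and on the mean of the gene. Red is above and blue below the mean of the gene, and byMM1777 is the reddest column in the 40S and 60S steps, with 9 of 15 and 13 of 21 highest levels, while 6 of the 7 snoRNP genes are highest in byMM1832 and NSR1 is blue there.

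The pairs of activator and control strain share no library, and 7 members were past 1.2-fold lower in both of them, against 5.91% of all genes. These were RPA14, UTP4, UTP20, NOP7, NOG2, BRX1 and RPF1, a list set by their values. No member was past 1.2-fold higher in both, as were 5.36% of all genes, and GAR1 alone was past it in opposite ways, as were 4.84% of all genes. The only test that 1 library per strain allows is an additive fit of the Cas protein and the ScRNA over the 4 libraries, with edgeR's quasi-likelihood test and 1 residual degree of freedom. In this fit, 0 of 51 members passed an adjusted p of 0.05 for the ScRNA term, and 0 of 6010 genes did (0%). The lowest adjusted p of a member was 0.548, for NOP7 (log2 difference with ScRNA -0.55, lower in both pairs). Without adjustment, 6 members had a p under 0.05, all lower with ScRNAs, against 504 genes or 8.39% of all. They were RPA14, UTP4, UTP20, NOP7, NOG2 and BRX1, and DESeq2 gave 0 members after adjustment and 1 without, against 6.49% of all genes. For the Cas term, 0 members and 2 genes (0.0333%) passed in edgeR's test, and 8 members, all lower in the dCas12e strains, had an unadjusted p under 0.05, against 12.1% of all genes, while DESeq2 gave 0 members after adjustment and 4 without, against 9.68% of all genes.

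The box C/D snoRNP has 3 members, NOP1 (YDL014W), the methyltransferase that is the yeast fibrillarin, and the core proteins NOP56 (YLR197W) and NOP58 (YOR310C). NOP1 had 149.6 TPM in byMM1827, 153.9 TPM in byMM1777, 163.8 TPM in byMM1832 and 156.4 TPM in byMM1736. NOP56 had 33.7 TPM in byMM1827, 44.2 TPM in byMM1777, 31.9 TPM in byMM1832 and 29.7 TPM in byMM1736. NOP58 had 43.5 TPM in byMM1827, 46.6 TPM in byMM1777, 54.7 TPM in byMM1832 and 36.6 TPM in byMM1736. NOP1 was the highest of the 3 in every library, by 3.48- to 5.26-fold over NOP56, and only NOP58 stood out in byMM1832. Its relative log2 ratio of byMM1832 against byMM1736 was 0.55 (counting interval from 0.48 to 0.61), the highest of all members there, and 4.63% of all genes were as high. NOP58 also was higher in byMM1832 than in byMM1777, by 0.44. NOP56 and NOP58, which form a pair within the particle, thus differed in this comparison, since NOP56 was at 0.07 (from -0.02 to 0.15).

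The box H/ACA snoRNP has 4 members, the pseudouridine synthase CBF5 (YLR175W), which is the yeast dyskerin, and its partners GAR1 (YHR089C), NHP2 (YDL208W) and NOP10 (YHR072W-A). CBF5 had 60.2 TPM in byMM1827, 66.6 TPM in byMM1777, 74.7 TPM in byMM1832 and 50.3 TPM in byMM1736. GAR1 had 65.9 TPM in byMM1827, 89.0 TPM in byMM1777, 93.1 TPM in byMM1832 and 74.9 TPM in byMM1736. All 4 genes were highest in byMM1832 once the libraries were set on their medians, as were 37.8% of all genes, the most of any library. NHP2 had 110.4 TPM in byMM1827, 148.1 TPM in byMM1777, 132.1 TPM in byMM1832 and 128.4 TPM in byMM1736. NOP10, a gene of only 177 bases, had 344.0 TPM in byMM1827, 375.8 TPM in byMM1777, 435.1 TPM in byMM1832 and 407.9 TPM in byMM1736, and was the most abundant of all members on average. CBF5 was 0.54 higher in byMM1832 than in byMM1736 on the relative log2 scale (from 0.48 to 0.60) and 0.01 higher in byMM1827 than in byMM1777 (from -0.05 to 0.08). GAR1 was at -0.27 (from -0.36 to -0.19) in byMM1827 against byMM1777 and at 0.28 (from 0.20 to 0.36) in byMM1832 against byMM1736. Against the control of the other pair these values were -0.25 and 0.27. The median of the 4 genes was -0.12 in byMM1827 against byMM1777 and 0.17 in byMM1832 against byMM1736.

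NSR1 (YGR159C) encodes a nucleolin-like protein of the nucleolus that is needed for pre-rRNA processing. It had 162.8 TPM in byMM1827, 184.4 TPM in byMM1777, 94.3 TPM in byMM1832 and 173.1 TPM in byMM1736. The library of byMM1832 stood apart from the other 3, which lay close together. Its relative log2 ratio of byMM1832 against byMM1736 was -0.91 (from -0.96 to -0.86), the lowest of all members in that pair, and 3.39% of all genes were as low. Against byMM1777 it was -0.76, whereas in byMM1827 against byMM1777 it was -0.02 (from -0.06 to 0.02). With 5692 counts in byMM1832 and 11375 in byMM1736, counting error is small beside this difference. In the additive fit, which averages over both pairs, NSR1 had an adjusted p of 0.621 for the ScRNA term in edgeR's test.

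RNA polymerase I transcribes only the ribosomal DNA, and 7 of its own subunits were members. The large subunits RPA190 (YOR341W) and RPA135 (YPR010C) form the catalytic centre. RPA190 had 15.9 TPM in byMM1827, 22.7 TPM in byMM1777, 16.2 TPM in byMM1832 and 17.6 TPM in byMM1736. RPA135 had 47.8 TPM in byMM1827, 52.6 TPM in byMM1777, 51.7 TPM in byMM1832 and 52.5 TPM in byMM1736. RPA190 was at -0.35 (from -0.41 to -0.29) in byMM1827 against byMM1777, while RPA135 was at 0.02 (from -0.02 to 0.07). RPA49 (YNL248C) and RPA34 (YJL148W) encode a heterodimer that resembles the general factor TFIIF. RPA49 had 28.5 TPM in byMM1827, 36.1 TPM in byMM1777, 27.2 TPM in byMM1832 and 26.3 TPM in byMM1736. RPA34 had 16.4 TPM in byMM1827, 26.0 TPM in byMM1777, 14.4 TPM in byMM1832 and 15.8 TPM in byMM1736. Both were highest in byMM1777, with the other 3 libraries close to each other.

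RPA43 (YOR340C) and RPA14 (YDR156W) form the stalk of RNA polymerase I, which contacts the initiation factor Rrn3. RPA43 had 19.4 TPM in byMM1827, 19.7 TPM in byMM1777, 19.3 TPM in byMM1832 and 21.1 TPM in byMM1736. RPA14 had 204.5 TPM in byMM1827, 328.1 TPM in byMM1777, 162.6 TPM in byMM1832 and 195.3 TPM in byMM1736. The levels of this pair of subunits thus lay about an order of magnitude apart, and in byMM1827 against byMM1777 RPA43 was at 0.14 (from 0.00 to 0.28) and RPA14 at -0.52 (from -0.58 to -0.46). The sign for RPA43 rested on the scaling and the control, with -0.02 before centring and -0.18 against byMM1736, where RPA14 was at 0.00428. RPA14 overlaps the neighbouring open reading frame YDR157W by 8 bp, so that few reads could be shared. RPA12 (YJR063W), the subunit that resembles TFIIS and cleaves RNA in a stalled polymerase, had 118.4 TPM in byMM1827, 101.9 TPM in byMM1777, 137.4 TPM in byMM1832 and 113.4 TPM in byMM1736. It was lowest in byMM1777 and highest in byMM1832, with relative log2 ratios of 0.38 in byMM1827 against byMM1777, 0.24 in byMM1832 against byMM1736 and 0.37 in byMM1736 against byMM1777. Over the 7 subunits the medians were -0.18, -0.15 and -0.15 in the same order, of which the second was -0.00479 relative to genes of similar length. Within a library the levels of the 7 subunits spanned from 11.3- to 16.6-fold. RPA43 and RPA190 are neighbours that are transcribed away from each other, with 804 bp between them. In byMM1827 they went opposite ways against byMM1777, at 0.14 and -0.35, and both were lower against byMM1736, at -0.18 and -0.21. In byMM1832 both were lower against byMM1736, at -0.16 and -0.15, and they went opposite ways against byMM1777, at 0.17 and -0.28. In byMM1736 against byMM1777 they were at 0.31 and -0.15.

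**Figure D4:**
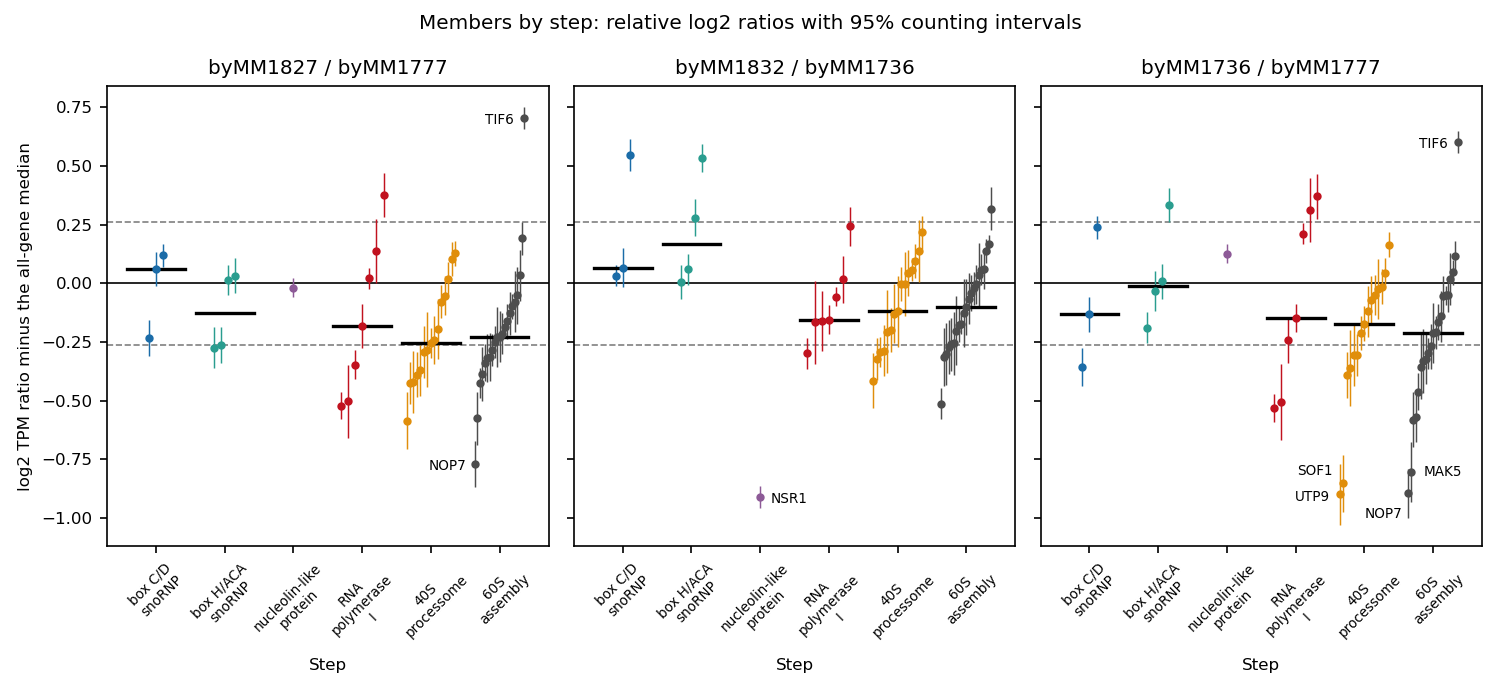
Relative log2 TPM ratios of the members by step in the 3 comparisons, with 95% counting intervals as vertical lines, medians as black bars and 1.2-fold as dashed lines. The 40S and 60S steps have medians of -0.25 and -0.23 in byMM1827 against byMM1777 and of -0.17 and -0.21 in byMM1736 against byMM1777, TIF6 lies above all other members in both, and NSR1 lies below all others in byMM1832 against byMM1736.

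The 40S processome was represented by 15 genes. UTP4 (YDR324C), UTP5 (YDR398W), UTP8 (YGR128C), UTP9 (YHR196W), UTP10 (YJL109C), UTP15 (YMR093W) and NAN1 (YPL126W) encode the complex UtpA, which binds the start of the nascent precursor. PWP2 (YCR057C) and DIP2 (YLR129W) belong to UtpB, and IMP3 (YHR148W), IMP4 (YNL075W) and MPP10 (YJR002W) form the Mpp10 complex, which holds the U3 snoRNA on the precursor. UTP20 (YBL004W), UTP22 (YGR090W) and SOF1 (YLL011W), a protein with WD repeats, were the remaining ones. The median of the step was -0.25 in byMM1827 against byMM1777 (-0.15 relative to genes of similar GC content), with 12 of 15 lower and 7 past 1.2-fold lower. It was -0.12 in byMM1832 against byMM1736, with 10 lower and 4 past 1.2-fold lower, and -0.17 in byMM1736 against byMM1777, with 13 lower and 6 past 1.2-fold lower. Of all genes, 15.7%, 22.2% and 18.7% were past 1.2-fold lower in these comparisons, in the same order. No gene of the step was past 1.2-fold higher in any of them, where 18.4%, 19.5% and 19.7% of all genes were.

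The highest level of 9 of the 15 genes was in byMM1777. UTP9 had 11.1 TPM in byMM1827, 18.5 TPM in byMM1777, 8.07 TPM in byMM1832 and 8.56 TPM in byMM1736. Its relative log2 ratio was -0.58 (from -0.70 to -0.46) in byMM1827 against byMM1777 and -0.90 (from -1.03 to -0.77) in byMM1736 against byMM1777, the lowest of all members in that comparison, where 0.632% of all genes were as low. Against byMM1736, UTP9 was higher in byMM1827, by 0.31. SOF1 had 17.0 TPM in byMM1827, 24.6 TPM in byMM1777, 11.99 TPM in byMM1832 and 11.7 TPM in byMM1736. The dCas12e strains had similar low levels of SOF1, and both denAsCas12a strains had higher ones.

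UTP5 was the most abundant gene of the step, with 63.3 TPM in byMM1827, 64.8 TPM in byMM1777, 66.7 TPM in byMM1832 and 62.5 TPM in byMM1736, and it had the highest relative ratios of the step in byMM1827 against byMM1777 (0.13) and in byMM1736 against byMM1777 (0.17). UTP20, a very large scaffold protein, was the least abundant, with 3.34 TPM in byMM1827, 4.57 TPM in byMM1777, 2.78 TPM in byMM1832 and 3.63 TPM in byMM1736. It was lowest in byMM1832, at -0.41 (from -0.53 to -0.30) against byMM1736. UTP15 had 44.4 TPM in byMM1827, 49.0 TPM in byMM1777, 44.6 TPM in byMM1832 and 37.5 TPM in byMM1736, and was the highest of the step in byMM1832 against byMM1736, at 0.22 (from 0.15 to 0.29). The 7 subunits of UtpA spanned from 5.53- to 8.26-fold in TPM within a library, and those of the Mpp10 complex from 1.53- to 2.22-fold. The UtpB genes differed from each other, with PWP2 at 0.10 (from 0.03 to 0.18) and DIP2 at -0.42 (from -0.51 to -0.34) in byMM1827 against byMM1777. The Mpp10 complex had a median of -0.24 in byMM1827 against byMM1777 and of 0.04 in byMM1832 against byMM1736.

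The 60S assembly factors were 21 genes. NOP7 (YGR103W), ERB1 (YMR049C) and YTM1 (YOR272W) encode a complex that acts in maturation of the 27S precursor, and NOP2 (YNL061W) and SPB1 (YCL054W) encode rRNA methyltransferases. RLP7 (YNL002C), RLP24 (YLR009W) and MRT4 (YKL009W) encode proteins that resemble ribosomal proteins, and BRX1 (YOL077C), RPF1 (YHR088W), RPF2 (YKR081C) and SSF1 (YHR066W) encode Brix-domain proteins. NOG1 (YPL093W), NOG2 (YNR053C) and NUG1 (YER006W) encode GTPases, DRS1 (YLL008W), HAS1 (YMR290C), MAK5 (YBR142W) and SPB4 (YFL002C) encode DEAD-box RNA helicases, NOP4 (YPL043W) an RNA-binding protein, and TIF6 (YPR016C) the factor that keeps the 60S subunit from joining the 40S subunit too early. Their median was -0.23 in byMM1827 against byMM1777 (18 of 21 lower, 8 past 1.2-fold lower and 1 higher). It was -0.10 in byMM1832 against byMM1736 (15 lower, 4 past 1.2-fold lower and 1 higher). In byMM1736 against byMM1777 it was -0.21 (17 lower, 10 past 1.2-fold lower and 1 higher). The shares of all genes past 1.2-fold were 15.7%, 22.2% and 18.7% lower and 18.4%, 19.5% and 19.7% higher, in the same order.

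NOP7 had 14.6 TPM in byMM1827, 27.8 TPM in byMM1777, 10.6 TPM in byMM1832 and 12.9 TPM in byMM1736. The level of byMM1777 stood well above the other 3. The relative log2 ratio of NOP7 was -0.77 (from -0.87 to -0.67) in byMM1827 against byMM1777, where 0.832% of all genes were as low, -0.31 (from -0.44 to -0.19) in byMM1832 against byMM1736 and -0.89 (from -0.998 to -0.790) in byMM1736 against byMM1777. Against byMM1736, NOP7 was 0.12 higher in byMM1827. Its partners did not differ likewise, since ERB1 was at 0.19 and YTM1 at -0.21 in byMM1827 against byMM1777, and both at -0.05 in byMM1736 against byMM1777. The 3 genes of the complex spanned 2.16-fold in TPM in byMM1827, 1.44-fold in byMM1777, 3.20-fold in byMM1832 and 2.58-fold in byMM1736.

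TIF6, by contrast, had 289.6 TPM in byMM1827, 198.5 TPM in byMM1777, 235.7 TPM in byMM1832 and 259.4 TPM in byMM1736. The level of byMM1777 was the lowest of the 4 here. Its relative log2 ratio was 0.71 (from 0.66 to 0.75) in byMM1827 against byMM1777, where 2.83% of all genes were as high, and 0.60 (from 0.55 to 0.65) in byMM1736 against byMM1777. In byMM1832 against byMM1736 it was -0.17 (from -0.21 to -0.13). TIF6 had the highest mean level of the step over the 4 libraries and SPB1 the lowest, with 8.87 TPM in byMM1827, 10.3 TPM in byMM1777, 6.56 TPM in byMM1832 and 7.65 TPM in byMM1736.

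Among the helicases, MAK5 had 9.66 TPM in byMM1827, 14.1 TPM in byMM1777, 6.19 TPM in byMM1832 and 6.96 TPM in byMM1736, with a relative log2 ratio of -0.80 (from -0.93 to -0.68) in byMM1736 against byMM1777. SPB4 had 20.9 TPM in byMM1827, 25.5 TPM in byMM1777, 23.3 TPM in byMM1832 and 18.3 TPM in byMM1736. It was the highest of the step in byMM1832 against byMM1736, at 0.32 (from 0.23 to 0.41). The lowest of the step in that pair was the GTPase gene NOG2, at -0.51 (from -0.58 to -0.45). NOG2 had 46.0 TPM in byMM1827, 62.6 TPM in byMM1777, 41.9 TPM in byMM1832 and 58.4 TPM in byMM1736, so that both strains with ScRNAs lay below both controls. A noncoding gene annotated on the same strand shares 274 bp with NOG2, and reads from the 2 genes could be mixed there. Over the 3 GTPase genes the level spanned from 1.69- to 2.72-fold within a library. The other GTPase genes, NOG1 and NUG1, were at 0.17 and 0.14 in byMM1832 against byMM1736. RPF1 was at -0.32 in byMM1827 against byMM1777 and at -0.27 in byMM1832 against byMM1736, while its convergent neighbour GAR1, at a distance of 298 bp, was lower only in the first. The 4 Brix-domain genes had medians of -0.27 in byMM1827 against byMM1777, -0.17 in byMM1832 against byMM1736 and -0.33 in byMM1736 against byMM1777, the 4 helicase genes had -0.21, -0.06 and -0.36, and the 3 genes of proteins that resemble ribosomal proteins had -0.31, -0.10 and -0.16. Reads of SSF1 may be shared with its paralog, since 84.4% of its words of 31 bases occur once in the genome.

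The 47 members with the PAC core had medians of -0.23 in byMM1827 against byMM1777, -0.07 in byMM1832 against byMM1736 and -0.15 in byMM1736 against byMM1777, and the 4 members without it had -0.02, 0.18 and -0.19. The 42 members with the RRPE core had -0.22, -0.06 and -0.14 in these comparisons, and the 9 members without it had -0.23, -0.00194 and -0.33. The 40 members with both cores had -0.23, -0.06 and -0.14, against -0.19, -0.00194 and -0.31 in the 11 members without both. The 4 members without PAC thus had the higher median in both pairs of activator and control. They ranged there from -0.42 to 0.38 and from -0.26 to 0.24, within the ranges of the members with PAC. The 9 without RRPE had the lower median in byMM1736 against byMM1777. The 1133 other genes with PAC had medians of -0.02, -0.03 and -0.00314 in the 3 comparisons, and the 493 with RRPE had -0.02, -0.00233 and -0.01. The 221 other genes with both cores had a median of -0.10 in byMM1827 against byMM1777, of -0.07 in byMM1832 against byMM1736 and of -0.10 in byMM1736 against byMM1777. The genes without both cores had medians between 0.00120 and 0.00451 in these comparisons.

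Other genes of the pathway were taken from lists that do not hold the members. For these lists byMM1827 was set only against byMM1777, the library that the comparison of the controls shares. Their values in byMM1827 against byMM1736 were not taken. Of 42 further factors of the 40S processome, 18 were past 1.2-fold lower and 1 higher in byMM1827 against byMM1777 (median -0.22), 14 lower and 2 higher in byMM1832 against byMM1736 (median -0.12), and 19 lower and 0 higher in byMM1736 against byMM1777 (median -0.23). Of 46 further nuclear factors of the 60S subunit, 17, 16 and 15 were past 1.2-fold lower in these comparisons, with medians of -0.13, -0.20 and -0.17. Past 1.2-fold in the same comparisons were 15.7%, 22.2% and 18.7% of all genes lower and 18.4%, 19.5% and 19.7% higher. The 8 late factors of the 40S subunit had medians of -0.32, -0.10 and -0.35, and the 10 factors of export and cytoplasmic maturation of the 60S subunit had -0.15, 0.04 and -0.16. NOP14, a processome gene, had 4.51 TPM in byMM1827, 7.48 TPM in byMM1777, 3.51 TPM in byMM1832 and 4.30 TPM in byMM1736, which is the order seen in NOP7.

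The 8 initiation factors of RNA polymerase I had medians of -0.21 in byMM1827 against byMM1777, -0.08 in byMM1832 against byMM1736 and -0.31 in byMM1736 against byMM1777. Among them RRN11, a subunit of the core factor, had 3.87 TPM in byMM1827, 6.35 TPM in byMM1777, 1.64 TPM in byMM1832 and 4.15 TPM in byMM1736, so that it was lowest in byMM1832. The 7 subunits that RNA polymerases share had medians of -0.00775, 0.24 and 0.07 in the same comparisons, the 10 subunits of RNA polymerase III had -0.00358, -0.04 and 0.02, and the 7 of RNA polymerase II had 0.08, -0.21 and 0.08. The 8 regulators of the regulon had -0.20, -0.32 and -0.12, and the one farthest from the median of all genes in the first was STB3, whose product binds RRPE, with 69.9 TPM in byMM1827, 98.5 TPM in byMM1777, 87.7 TPM in byMM1832 and 73.7 TPM in byMM1736.

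The genes of the ribosomal proteins did not follow the members. Of 137 such genes, 57 were past 1.2-fold higher and 22 lower in byMM1827 against byMM1777 (median 0.16), 121 higher and 0 lower in byMM1832 against byMM1736 (median 0.51), and 92 higher and 0 lower in byMM1736 against byMM1777 (median 0.38). Among all genes, 18.4%, 19.5% and 19.7% were past 1.2-fold higher and 15.7%, 22.2% and 18.7% lower, in the same order. The 22 lower genes in byMM1827 against byMM1777 thus lay close to the share of all genes. In byMM1832 against byMM1736, 136 of the 137 lay above the median of all genes, while 31 of the 51 members lay below it. The largest difference in byMM1827 against byMM1777 was in RPS30B, with 216.9 TPM in byMM1827, 62.8 TPM in byMM1777, 255.4 TPM in byMM1832 and 212.5 TPM in byMM1736. The relative log2 ratio of RPS30B to byMM1777 was 1.95 in byMM1827 and 1.98 in byMM1736, with byMM1777 the lowest library. Both comparisons share byMM1777, and the ribosomal protein genes of byMM1827 were not compared with byMM1736 as a list. A list of 10 stress-induced genes had medians of 0.28 in byMM1827 against byMM1777, -0.98 in byMM1832 against byMM1736 and -0.04 in byMM1736 against byMM1777. Past 1.2-fold, 6 were higher and 1 lower in the first, 1 higher and 6 lower in the second, and 1 higher and 3 lower in the last. The shares of all genes are those given above. HSP12 of this list, a small heat shock protein, had 2163 TPM in byMM1827, 1262 TPM in byMM1777, 524.3 TPM in byMM1832 and 1470.3 TPM in byMM1736. The part of growth state in the values of the members was not tested.

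**Figure D5:**
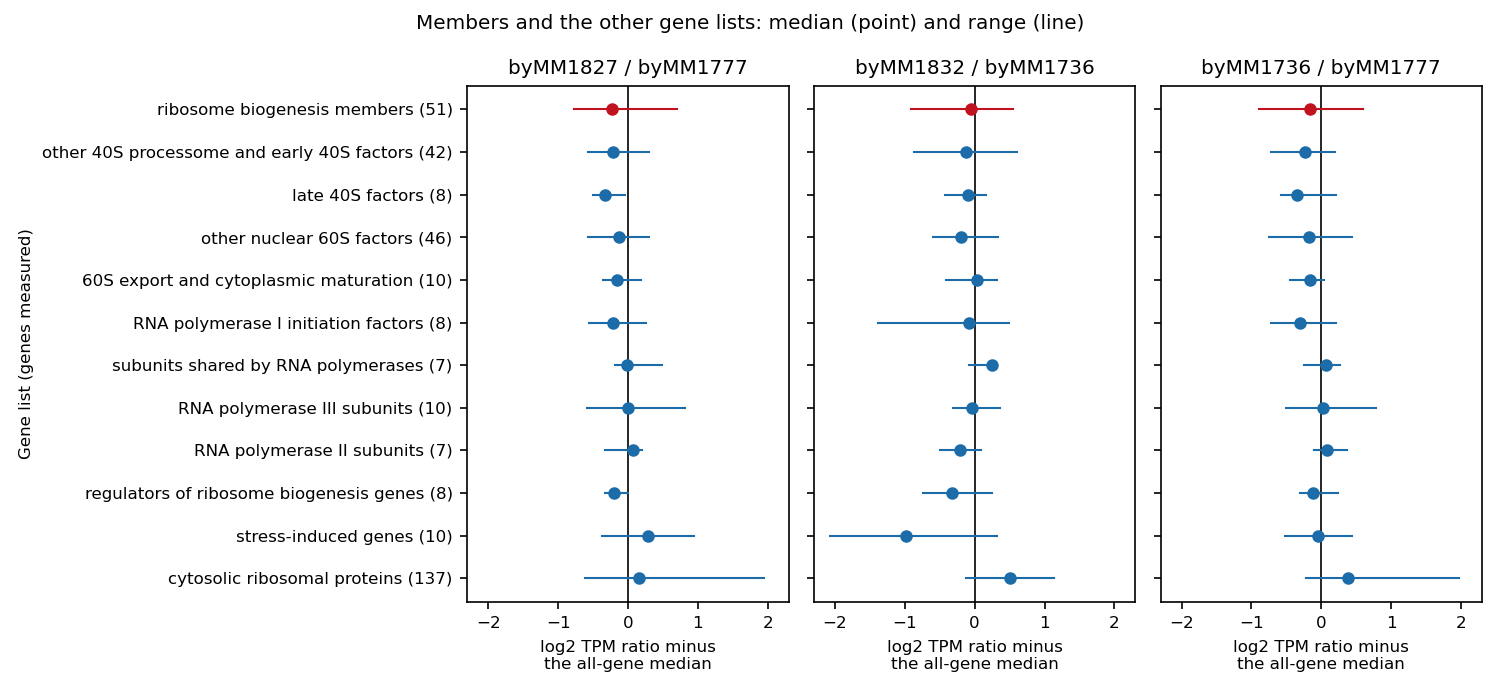
Median (point) and range (line) of the relative log2 TPM ratios of the 51 members (red) and of 11 other gene lists (blue) in the 3 comparisons, with the number of genes measured in parentheses. The medians of the other factors of the 40S and 60S subunits lie on the same side of 0 as that of the members in most panels. The medians of the 137 ribosomal protein genes lie above 0 in all 3, at 0.16, 0.51 and 0.38, with 45, 1 and 18 of the genes below 0. The stress-induced genes have a median of -0.98 in byMM1832 against byMM1736.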

How the data were processed

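mRNA libraries, for which no strand setting is stated, were sequenced from 4 *S. cerevisiae* strains, 1 library each. The submitters' processing notes name FastQC, Trimmomatic, HISAT2, StringTie, bedtools and DESeq2, without role or version, and the genome build is not given in the sources used here. The authors deposited a count of reads per gene and sample, as whole numbers without normalization. The authors also deposited TPM values per gene, and from both the length behind the TPM was within 5% of the R64 gene length for 50 of 51 members. In each table, 2 further columns named strains outside the samples and were not used, nor were the authors' own comparison tables, which hold fold changes and p-values.

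Members were matched by systematic name, with RefSeq names of the R64 assembly. Log2 TPM ratios, without pseudocount, were taken relative to the median of genes with at least 10 counts on average. Counting intervals are 95% Clopper-Pearson intervals of the 2 counts, which leave out all error but that of counting, as several reads may stem from 1 molecule. Differences past 1.2-fold were counted. The additive fit of Cas protein and ScRNA used TMM factors and the quasi-likelihood test of edgeR 4.0.16 (R 4.3.3), with Benjamini-Hochberg adjustment over 6010 genes and 1 residual degree of freedom. DESeq2 1.42.0, other scalings, filters and the other control served as alternatives, and the running medians of 300 genes of similar length, GC content or level were chosen after seeing the data. The fitting script was tested on simulated data. Levels in each library are given for members in steps of up to 8 members. In the larger steps they are given for the highest and lowest mean level, the most extreme ratios, and ratios past 1.5-fold, and at most 2 genes were named from each other list by their ratio in byMM1827 against byMM1777. PWP2, DIP2, NOG1, NUG1, ERB1, YTM1 and RPF1 were named after their values were seen. The members and lists were chosen with earlier results of these data known. Promoter windows were cut from R64 from the annotated start codon and CEN.PK sequence may differ.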

Additional observations from a re-analysis of the deposited data

Results flagged for a closer look

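GAR1, a core gene of the box H/ACA snoRNP, differed in opposite ways in the pairs of activator and control. Its relative log2 TPM ratio was -0.27 in byMM1827 against byMM1777 and 0.28 in byMM1832 against byMM1736, and neither counting interval reached 0. With 1 library per strain, the difference between the pairs was not tested.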

How the results depend on the processing

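Scaling by TMM or DESeq2 size factors, a pseudocount of 1 TPM and either other filter moved each of the 153 relative ratios of the members by less than the half-width of its counting interval. Relative to genes of similar GC content, 45 of the 153 ratios moved by more than that, of similar level 24 and of similar length 18, and none past 1.2-fold changed sign. The 40S median in byMM1827 against byMM1777 was then -0.15 by GC content, the H/ACA median in byMM1736 against byMM1777 -0.11 by GC content, and the RNA polymerase I median in byMM1832 against byMM1736 -0.00479 by length. Without centring, the median was -0.39 in byMM1827 against byMM1777 (32 members past 1.2-fold lower, 1 higher, against 34.3% and 9.22% of all genes) and -0.38 in byMM1736 against byMM1777 (35 lower, 1 higher, against 43.7% and 7.99%). Relative to ACT1 the medians were -0.61 (45 lower, 1 higher, against 65.99% and 3.84%) and -0.58 (44 lower, 0 higher, against 69.8% and 3.73%), and 2 members were past 1.2-fold higher in byMM1832 against byMM1736, against 14.5%. Of the members past 1.2-fold, ACT1 scaling turned RPA12 to -0.00103 in byMM1827 against byMM1777, and in byMM1736 against byMM1777 it turned NOP10 to -0.0839, RPA43 to -0.107 and RPA12 to -0.0482. When the controls were exchanged, byMM1827 had a median of -0.00495 (4 lower, 5 higher) and byMM1832 one of -0.22 (24 lower, 7 higher). Of the members past 1.2-fold in byMM1827, the exchange turned RPA12 to -4.39e-05, RPA14 to 0.00428, UTP9 to 0.31, IMP3 to 0.0712, SOF1 to 0.47, NOP7 to 0.12, RLP24 to 0.25 and MAK5 to 0.41. With TPM as deposited, byMM1777 was highest in 40 members and in 53.96% of all genes. Past 1.5-fold, 1 member was lower and 1 higher in byMM1827 against byMM1777 (2.06% and 4.93% of all genes), 1 lower and 0 higher in byMM1832 against byMM1736 (7.89% and 3.69%), and 4 lower and 1 higher in byMM1736 against byMM1777 (2.95% and 5.32%). With the whole counting interval past 1.2-fold, 11 were lower and 2 higher in byMM1827 against byMM1777 (7.64% and 11.7% of all genes). In byMM1832 against byMM1736, 3 were lower and 2 higher (14.4% and 12.8%), and in byMM1736 against byMM1777, 11 were lower and 2 higher (9.82% and 13.1%). DESeq2 called 46 genes for the ScRNA term and 98 for the Cas term, against 0 and 2 in edgeR on the same genes and 0 and 1 in edgeR without a filter, and no member was called by any of them. The longer motifs GCGATGAG and AAAAATTTT were found in 28 and 39 members, and both in 21. The cause of these shifts was not tested. No library could be left out, as each strain has 1, and the additive fit itself compares ScRNA strains within each Cas protein. Counting error is small at 484 or more counts per member, whereas the error between cultures is unknown.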
